A study of Caenorhabditis elegans with 2 samples.

Results

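Autosomal peaks of DNA enriched with GFP-tagged NHR-12 were examined where they lay in divergent promoters, the stretches of DNA between a pair of protein-coding genes that are transcribed away from each other. A peak belonged to this class when its summit, the base of highest signal, lay on chromosomes I to V between the 5′ ends of such a pair and both 5′ ends were within 1000 bp of it. Of 29431 peaks in the pooled list, 29401 were nuclear and 23360 autosomal, and 635 met this rule. They lay between 609 gene pairs with 1214 genes. The rule used positions and gene annotation and no signal value, but the class was proposed with earlier results of these data known. Other autosomal peaks were divided into 4794 one-way promoter peaks, with a summit up to 1000 bp upstream of a protein-coding 5′ end but outside divergent promoters, and 17931 remaining peaks.

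The data were chromatin immunoprecipitation followed by sequencing (ChIP-seq) of whole L2 larvae, the second larval stage, in 2 biological replicates of 1 group. Both samples were strain OP318 with unc-119(ed3) III and the insertion wgIs318, which carries tagged nhr-12, and males and females were pooled. The labels name eGFP-nhr-12 as the target and a fragment size range of 150 to 350 bp, and do not say which cells held the tagged protein. No animals without the tagged protein were analysed here and no other condition was part of the design, so peaks were described and no test between conditions was made. The replicate lists, each of 30000 peaks, had 737 (replicate 1) and 625 (replicate 2) peaks in autosomal divergent promoters. The pooled list was called from the reads of both replicates and is not independent of them. The thresholded list holds 228 pooled peaks, 157 of them autosomal, that passed a limit on the irreproducible discovery rate, a measure of how alike replicates rank peaks. It rests on the same libraries, and how each replicate entered the selection is not given in the sources used here. Read depth is unknown, and a signal value carries no error of its own, so the spread between the replicate lists is the only error that can be given.

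Nuclear hormone receptors are transcription factors with a zinc-finger DNA-binding domain, many of which are controlled by small lipophilic ligands, and the family is much larger in C. elegans than in mammals. Divergent promoters are common in the compact worm genome and place the regulatory DNA of neighbouring genes in a shared gap, so a peak there cannot be given to one gene of the pair from its place alone. Many worm transcripts receive a spliced leader by trans-splicing, so that an annotated 5′ end can be the splice site that follows an AG and not the base at which transcription starts.

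Sequences at some of the strongest divergent promoter peaks are shown first, since the letters near the summit set them apart in composition from weaker peaks. Every window shown holds a motif marked below or a long run of bases shared with another window. Strong peaks without these, such as eef-1A.1 / rfc-4 and iff-2 / F54C9.14, are not shown. The windows therefore do not show how common the motifs are, and no marked motif was in more than 9 of the 43 thresholded windows. Each is the plus strand of the RefSeq genome of WBcel235, the assembly also called ce11, and reaches 50 bases to each side of the summit. The gene before the slash lies to the left on the minus strand and the gene after it to the right on the plus strand. Capitals mark the motif GACGCA, the motif CATACACT, the motif TGGAGCG or the motif GGTCTCG, each on either strand. The first motif came from an earlier look at these peaks, and the other motifs were read by eye in these sequences. The windows are chrIV:4750029-4750129 for rpl-20 / Y17G9B.5, chrIV:654866-654966 for rpl-15 / K11H12.8, chrIII:4475594-4475694 for ifet-1 / rps-1, chrIII:10759189-10759289 for K01G5.10 / tasp-1, chrIII:5018269-5018369 for larp-1 / wip-1, chrIV:2389095-2389195 for sec-61.B / trap-3, chrIII:13643675-13643775 for drr-2 / set-16, chrII:8185174-8185274 for mig-5 / cct-1, chrIV:6790568-6790668 for C17H12.2 / vha-8, chrII:10868918-10869018 for gmps-1 / cap-2 and chrIV:1094314-1094414 for cct-8 / Y55F3AR.2.
rpl-20 / Y17G9B.5: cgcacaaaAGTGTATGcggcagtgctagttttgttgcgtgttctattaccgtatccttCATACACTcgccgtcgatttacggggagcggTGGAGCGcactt
rpl-15 / K11H12.8: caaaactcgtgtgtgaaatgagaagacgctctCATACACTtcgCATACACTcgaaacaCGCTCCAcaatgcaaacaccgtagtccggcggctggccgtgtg
ifet-1 / rps-1: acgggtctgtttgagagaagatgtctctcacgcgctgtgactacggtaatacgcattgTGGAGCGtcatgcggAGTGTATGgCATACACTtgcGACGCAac
K01G5.10 / tasp-1: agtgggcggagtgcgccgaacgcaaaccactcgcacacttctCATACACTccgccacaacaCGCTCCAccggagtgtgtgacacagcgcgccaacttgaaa
larp-1 / wip-1: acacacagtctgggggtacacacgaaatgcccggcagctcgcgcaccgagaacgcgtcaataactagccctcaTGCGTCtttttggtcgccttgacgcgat
sec-61.B / trap-3: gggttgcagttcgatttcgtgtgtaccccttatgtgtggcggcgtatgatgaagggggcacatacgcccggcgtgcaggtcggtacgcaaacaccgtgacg
drr-2 / set-16: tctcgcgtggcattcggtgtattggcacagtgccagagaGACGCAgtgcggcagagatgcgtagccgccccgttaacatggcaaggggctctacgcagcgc
mig-5 / cct-1: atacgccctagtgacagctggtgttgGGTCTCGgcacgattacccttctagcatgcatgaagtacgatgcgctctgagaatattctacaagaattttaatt
C17H12.2 / vha-8: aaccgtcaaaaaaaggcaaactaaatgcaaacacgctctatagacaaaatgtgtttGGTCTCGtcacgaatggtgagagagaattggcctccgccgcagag
gmps-1 / cap-2: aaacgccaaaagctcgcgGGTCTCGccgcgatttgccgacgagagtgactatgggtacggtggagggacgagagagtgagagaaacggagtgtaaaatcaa
cct-8 / Y55F3AR.2: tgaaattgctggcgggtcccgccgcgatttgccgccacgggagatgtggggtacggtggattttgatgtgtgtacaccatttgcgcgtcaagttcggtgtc

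CATACACT was found in the windows of rpl-20 / Y17G9B.5, rpl-15 / K11H12.8 and ifet-1 / rps-1, with 2 copies each, and of K01G5.10 / tasp-1, with 1 copy. All 4 of these windows also held TGGAGCG. The windows of larp-1 / wip-1 and sec-61.B / trap-3 shared an identical run of 16 bases, counting both strands. An identical run of 15 bases was shared by cct-8 / Y55F3AR.2 and gmps-1 / cap-2, and a run of 14 bases by rpl-15 / K11H12.8 and ifet-1 / rps-1.

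Divergent promoter peaks were stronger than other autosomal peaks. Signal is the peak caller's own value for each peak, and its scale is not the same in each list, so every peak was also ranked among the autosomal peaks of its own list. Pooled signal had a median of 15.1 (9.23 to 106.96) in divergent promoters, against 13.05 in one-way promoters and 12.4 in the remaining autosomal peaks. The median percentile was 71.3 in divergent promoters, 54.8 in one-way promoters and 48.2 in the remaining peaks. The same order was seen in each replicate list, with 68.8, 52.2 and 49.0 in replicate 1 and 66.7, 54.5 and 48.5 in replicate 2. The difference lay mainly at the top of the range. Of divergent promoter peaks, 31.7% were within the highest 10% of autosomal pooled peaks, against 13.2% of one-way promoter peaks and 8.37% of the remaining peaks.

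**Figure D1:**
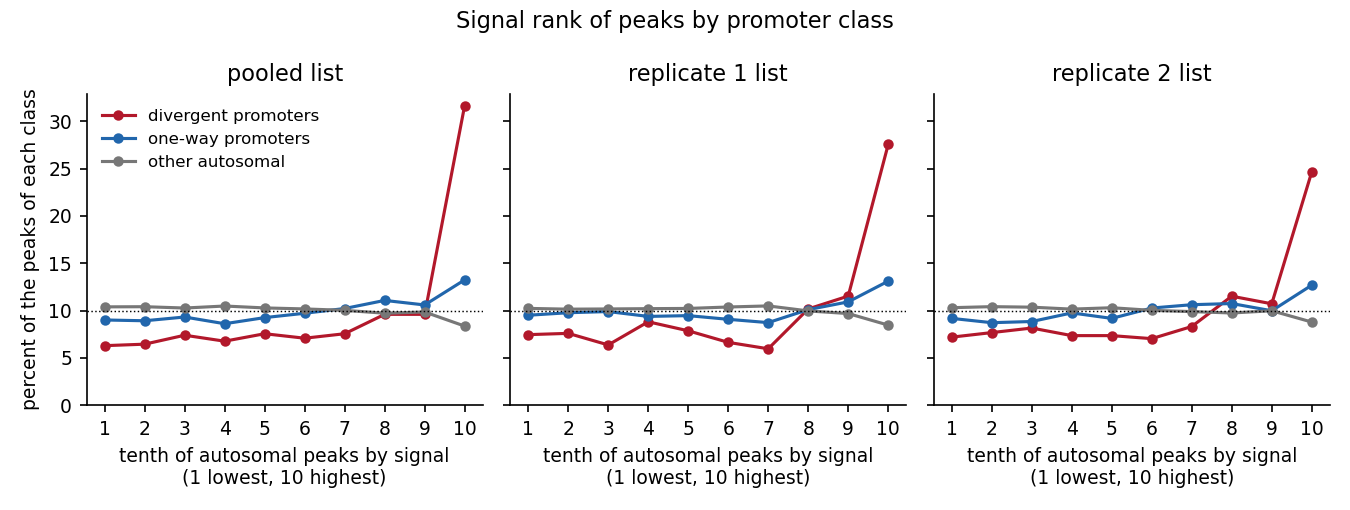
Percent of the peaks of each class (y axis) in each of 10 equal groups of the autosomal peaks ranked by signal (x axis, 1 lowest to 10 highest), in the pooled, replicate 1 and replicate 2 lists; the dotted line is 10%, the share of all autosomal peaks in each group. In group 10, divergent promoters held 31.7%, 27.5% and 24.6% of their peaks in the 3 lists, and the remaining autosomal peaks 8.37%, 8.47% and 8.79%.

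The thresholded list held 43 of the 635 peaks (6.77%, exact Clopper-Pearson 95% interval 4.94% to 9.01%, which covers counting of peaks only). Over all autosomal pooled peaks the share was 0.676% (158 of 23360). A peak counted here when its summit lay inside a thresholded interval, and this number is above the 157 autosomal peaks of the list itself. It was 1.38% in one-way promoters (66 of 4794) and 0.273% in the remaining peaks (49 of 17931). Of the summits in the replicate lists, 5.70% (42 of 737) and 6.56% (41 of 625) of those in divergent promoters fell inside a thresholded interval. The 43 peaks were the 43 strongest of the class by pooled signal, so the thresholded share and the signal are not separate lines of evidence. The weakest of them, between R107.5 and cls-2, had 37.4, and the strongest peak outside the list, between haf-3 and F57A10.2, had 37.1. The bases that could hold a summit of the class made up 1.38 Mb, or 1.67% of the autosomal bases. They held 461 pooled peaks and 31.2 thresholded peaks per Mb. The bases of one-way promoters held 335 and 4.62 per Mb, and the remaining autosomal bases 268 and 0.733 per Mb.

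By chromosome, a pooled peak was present in 24.9% of the divergent gene pairs on I, 19.4% on II, 23.3% on III, 22.4% on IV and 20.03% on V. Over the autosomes this was 609 of 2797 pairs, or 21.8%. Thresholded peaks were less evenly placed, with 13 on I, 5 on II, 15 on III, 9 on IV and 1 on V, although V had the most divergent pairs, 754. They were in 2.59% of pairs on I, 0.914% on II, 3.21% on III, 1.71% on IV and 0.133% on V, against 1.54% of all pairs. How the thresholded peaks outside divergent promoters were spread over the chromosomes is not given here. The pattern is therefore not shown to be particular to this class. The single thresholded pair on V was dnj-19 / nhr-47. No test of these chromosome differences was made.

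Ribosomal protein genes were in 8 of the 20 strongest pairs, and genes of translation factors in 2 more. The strongest peak lay between rpl-20 (WBGene00004432), which encodes ribosomal protein eL20, and Y17G9B.5 (WBGene00021202), at chrIV:4749919-4750238. Its signal was 106.96 in the pooled list, 20.2 in replicate 1 and 87.2 in replicate 2. The summit was 301 bp from rpl-20 and 161 bp from Y17G9B.5, whose RefSeq product name is that of the mitochondrial Toll pathway protein ECSIT. It was rank 47 of the autosomal peaks of replicate 1 and rank 3 of those of replicate 2. The next peak, between rpl-15 (WBGene00004427) and K11H12.8 (WBGene00019664) at chrIV:654756-655075, had 94.5 in the pooled list, 34.0 in replicate 1 and 64.3 in replicate 2. It stood among the 12 highest autosomal peaks of both replicates, at ranks 6 and 12.

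Other ribosomal protein pairs in the thresholded list had pooled signals between 38.9 and 82.9. The peak of ifet-1 / rps-1 (chrIII:4475484-4475803) had 81.3 in the pooled list, 36.2 in replicate 1 and 48.3 in replicate 2. Its partner gene ifet-1 encodes a translational repressor. For rpl-12 / lin-54 (chrIV:13240521-13240840) the values were 76.1, 15.6 and 58.2, with the summit 30 bp from rpl-12 and 363 bp from lin-54, a DNA-binding subunit of the DRM complex. The pair rps-20 / ekl-4 had 70.6, 19.2 and 50.6, rps-15 / F36A2.9 had 55.4, 21.2 and 37.4, and col-38 / rpl-5 had 51.7, 15.1 and 33.3. The last of the 10 thresholded ribosomal pairs, tmem-107 / rps-26, had 38.9, 10.5 and 30.9. The scales of the lists differ, with a median signal in divergent promoters of 4.51 in replicate 1 and 12.2 in replicate 2. Replicate 2 values were above replicate 1 values in all of these pairs, and the cause was not tested.

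A peak between rps-19 and hsr-9, a gene of the DNA damage response, was the exception. It had 82.9 in the pooled list and 33.6 in replicate 1, where it was rank 7, but no replicate 2 peak overlapped it. The peak between lin-53, a histone chaperone of the retinoblastoma-binding type, and nra-2 had 56.7 and 20.3 and likewise no replicate 2 peak. Both are in the thresholded list. They were the only 2 thresholded pairs in divergent promoters without an overlapping peak in each replicate.

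Pairs with a translation factor gene or another gene of RNA or chromatin regulation were also among the strongest 20. The peak between eef-1A.1, which encodes elongation factor 1-alpha, and rfc-4, a subunit of the clamp loader of DNA replication, had 70.1 in the pooled list, 17.5 in replicate 1 and 48.9 in replicate 2. At iff-2, which encodes initiation factor 5A, and F54C9.14 the values were 64.7, 21.2 and 44.4, with the summit 82 bp from iff-2 and 853 bp from its partner. The pair larp-1 / wip-1, in which larp-1 encodes a La-related RNA-binding protein, had 76.5, 28.0 and 48.2. At nhl-2 / tag-340, in which nhl-2 encodes a TRIM-NHL protein that acts with microRNAs, they were 64.8, 28.7 and 34.2. In drr-2 / set-16, with set-16 a histone methyltransferase gene of the MLL type, they were 61.6, 17.9 and 42.3.

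The 20 also held further pairs. The peak between gpap-1 and scpr-1 had 92.7 in the pooled list, 21.2 in replicate 1 and 71.4 in replicate 2. Between W09C5.12 and ints-4, a subunit gene of the Integrator complex that processes snRNA ends, it had 82.0, 20.1 and 62.6, and its summit was 28 bp from ints-4 and 992 bp from W09C5.12. The pair K01G5.10 / tasp-1, with tasp-1 encoding a taspase homologue, had 80.1, 36.5 and 45.9. For cux-7 / C07H6.2 the values were 64.7, 24.2 and 39.3. For rsr-1 / sri-5, in which rsr-1 encodes a splicing coactivator and sri-5 a chemoreceptor, they were 58.9, 13.4 and 44.8. The last of the 20, sec-61.B / trap-3, had 52.7, 20.8 and 33.7. Both of its genes act in protein entry to the endoplasmic reticulum, and it was the only thresholded pair with both genes in the same gene list.

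All 20 of the strongest pairs were thresholded, and 18 had an overlapping peak within the highest 1000 autosomal peaks of each replicate. Where found, they ranked no lower than 184 in replicate 1 and 78 in replicate 2. When the 20 strongest pairs were drawn up from each replicate list alone, replicate 1 shared 15 and replicate 2 shared 16 with the pooled 20, and the replicates shared 11 with each other.

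A peak overlapped in both replicates was found for 300 of the 635 divergent promoter peaks (47.2%), at an overlap of at least 1 bp. The share over all autosomal pooled peaks was 29.4%, and it was 33.8% in one-way promoters and 27.6% in the remaining peaks. Replicate 2 overlapped 521 of the 635 peaks (82.0%) and replicate 1 overlapped 386 (60.8%), against 80.2% and 41.6% of all autosomal pooled peaks. Of the other peaks of the class, 221 were found in replicate 2 alone, 86 in replicate 1 alone and 28 in neither. Over all autosomal pooled peaks 11875 were in replicate 2 alone and 2854 in replicate 1 alone, so replicate 2 held more of them there too. With only the highest 1000 autosomal peaks of each replicate, 49 of the 635 (7.72%) were in both, against 0.98% of all autosomal pooled peaks, 1.90% of one-way promoter peaks and 0.496% of the remaining peaks.

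By gene pair, 273 pairs had a summit in both replicate lists, which was 40.1% of the 680 pairs of replicate 1 and 46.0% of the 593 pairs of replicate 2. Of the 43 thresholded peaks, 41 were overlapped in both replicates and 36 were within the highest 1000 of both. The widest disagreement in rank was at R107.5 / cls-2, with signal 3.29 and rank 14860 in replicate 1 and 22.4 and rank 451 in replicate 2. Next came Y22D7AL.10 / hsp-60, with 5.22 and rank 4979 against 32.9 and rank 87, and fbxb-85 / hex-3, with 5.54 and rank 4124 against 33.1 and rank 84. Across the 300 peaks found in both, replicate signals had a Spearman rho of 0.41. Within the 41 thresholded peaks rho was 0.57, and within the other 259 it was 0.18. These values describe peaks that share libraries, and the thresholded list was drawn from the same libraries.

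**Figure D2:**
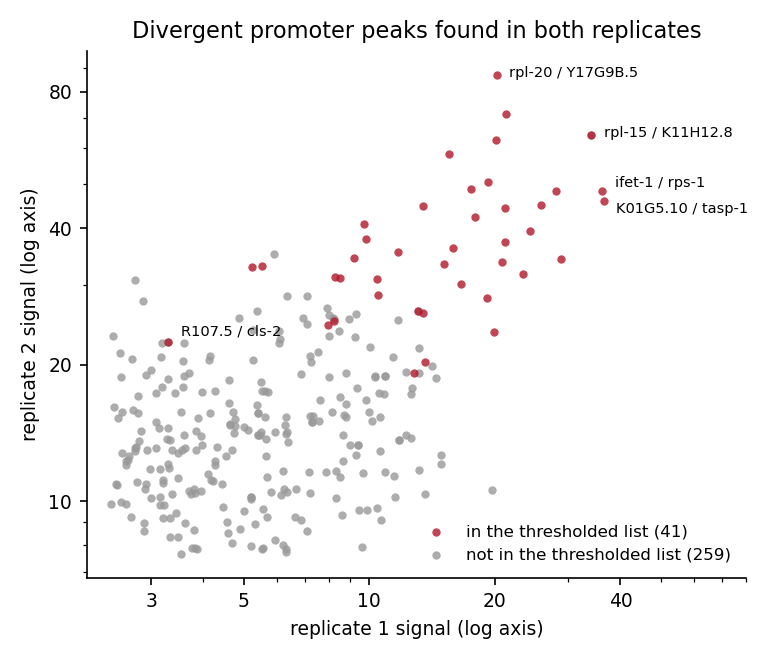
Signal in replicate 1 (x axis) and replicate 2 (y axis), both on log axes, of the 300 divergent promoter peaks with an overlapping peak in each replicate. Red points are the 41 peaks of the thresholded list and grey points the other 259. Thresholded peaks fill the upper right, while R107.5 / cls-2, at 3.29 and 22.4, lies at the left among grey points.

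Summits lay somewhat more often in the centre of the gap than the bases that could hold them in the pooled list and replicate 2, and in all 3 lists where gaps were short. The gap between the 5′ ends had a median of 699 bp at these peaks and of 775 bp over all 2797 pairs. Measured from the minus-strand gene, 51.02% of summits were in the middle part when the gap was cut into 3 equal parts, against 46.0% of the bases that could hold a summit. This was 51.5% in replicate 2 but 42.9% in replicate 1, below the share of bases, so the direction differed between replicates. In gaps of up to 1000 bp, where the 3 parts hold close to the same number of bases, the middle part held 47.2% of pooled summits, 38.9% of replicate 1 and 46.4% of replicate 2 summits, against 33.5% of bases. Thresholded summits were in the middle part in 25 of 43 cases (58.1%). Summits were divided almost evenly between the strands, with 329 summits nearer to the minus-strand gene, 304 nearer to the plus-strand gene and 2 at equal distance. The nearer 5′ end was a median of 210 bp away and the farther one 479 bp.

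**Figure D3:**
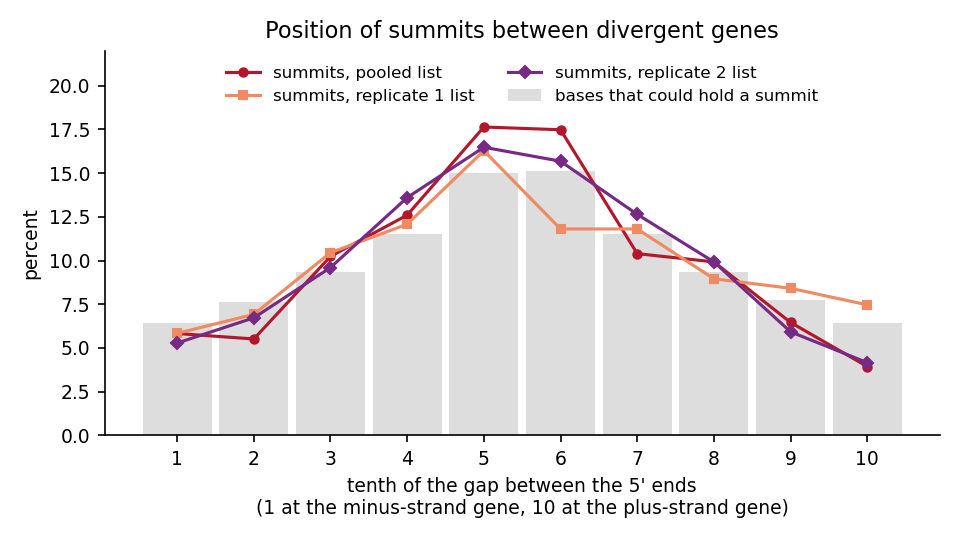
Percent of summits (lines, by list) and of the bases that could hold a summit (grey bars) in each of 10 equal parts of the gap, from the minus-strand gene (1) to the plus-strand gene (10). In part 6 the pooled list held 17.5% of summits, replicate 1 11.8% and replicate 2 15.7%, against 15.1% of bases.

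Peaks in gaps under 500 bp stood higher in signal than those in wider gaps. In replicate 2 the margin was small for gaps under 250 bp. In gaps under 250 bp, the median signal percentile was 81.5 in the pooled list, 87.3 in replicate 1 and 65.9 in replicate 2. For gaps of 250 to under 500 bp it was 88.9, 82.1 and 79.4. It was 64.2, 59.96 and 65.3 for gaps of 500 to under 1000 bp, and 61.0, 54.5 and 60.4 for wider gaps. Few of the shortest gaps held a peak, with 46 of 363 pairs (12.7%) and 2 thresholded. Gaps of 250 to under 500 bp held one in 152 of 527 pairs (28.8%), 17 of them thresholded. A peak was present in 31.8% of pairs with gaps of 500 to under 1000 bp and in 13.8% of those with wider gaps. Per Mb of bases that could hold a summit there were 785, 802, 471 and 295 peaks, from the shortest gaps to the widest. GC content within 50 bp of pooled summits moved with this. Its median was 37.6% in gaps of 250 to under 500 bp and 29.2% in gaps of 1000 bp or more. The part of GC content in the result was not tested.

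Divergent promoter peaks were also set against one-way promoter peaks at like distance from the nearest upstream 5′ end. Up to 100 bp away, the median pooled percentile was 71.7 in divergent and 55.9 in one-way promoters. At more than 100 to 250 bp it was 78.3 and 55.7, at more than 250 to 500 bp 63.9 and 57.3, and at more than 500 to 1000 bp 56.1 and 52.5. Divergent promoters were thus higher at every distance in the pooled list. In the replicate lists the same held except at more than 500 to 1000 bp in replicate 1, with 45.9 in 64 divergent and 48.3 in 2116 one-way promoter peaks.

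The strongest divergent promoter peaks were rich in GC. Within 50 bp of the summit, median GC content was 52.5% in the 43 thresholded peaks and 31.7% in all 635, against 45.5% in thresholded and 27.7% in all one-way promoter peaks. Mean GC content of the 635 windows was 34.4%, close to the 34.2% of all bases that could hold such a summit. These values are of the pooled list, and the replicate lists differed in GC content. The class medians of the replicates had a standard deviation of 4.90 percentage points. GC content was under 30% at 206 of 737 divergent promoter summits in replicate 1 and at 321 of 625 in replicate 2. Divergent promoters showed a rank correlation of GC content with pooled signal (Spearman rho 0.36, n = 635 peaks), while rho was 0.04 in one-way promoters and -0.07 in the remaining peaks, as a description across peaks of the same libraries. The classes were also set side by side within ranges of GC content. With 50% or more, 34.2% of 76 divergent promoter peaks were thresholded, against 9.52% of 189 one-way and 3.42% of 439 remaining peaks. From 40% to under 50%, the shares were 14.3% of 105, 6.54% of 382 and 1.00% of 1197 peaks. From 30% to under 40% the order depended on the list, with 1 of 160 divergent promoter peaks thresholded (0.625%) and 19 of 1249 one-way promoter peaks (1.52%) in the pooled list, but 1.62% against 0.701% in replicate 1 and 1.80% against 1.28% in replicate 2. Median signal percentile was higher in divergent than in one-way promoters in every one of these GC ranges in all 3 lists, and the smallest difference was in replicate 2 under 30%, with 56.9 against 56.5.

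**Figure D4:**
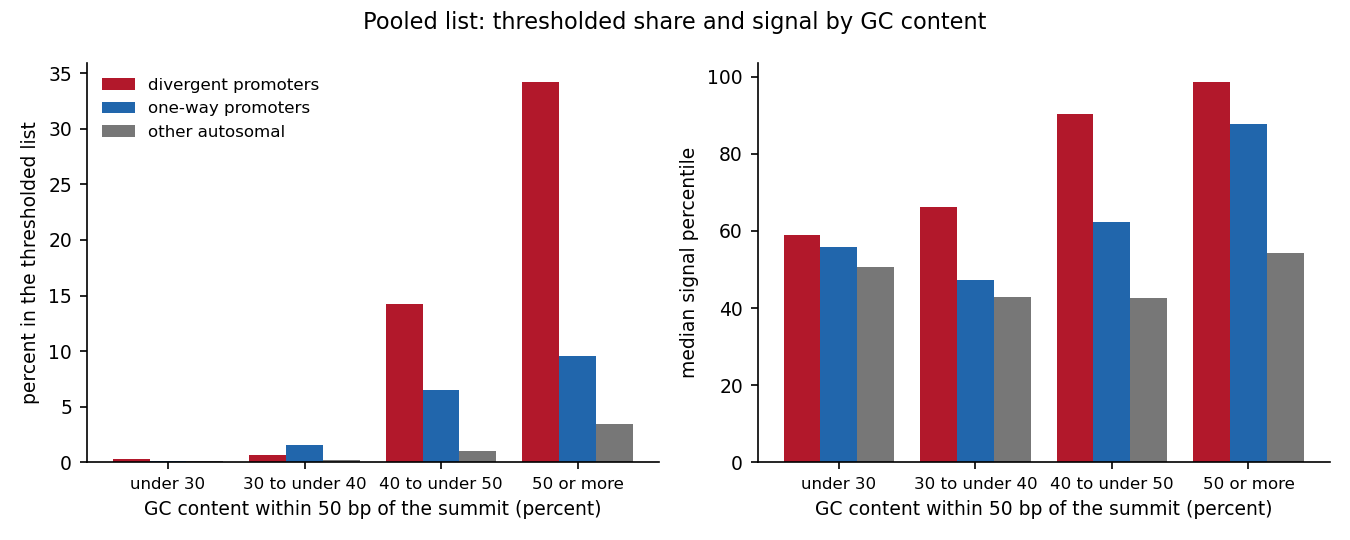
Percent of pooled peaks in the thresholded list (left) and their median signal percentile (right), by GC content within 50 bp of the summit, in divergent promoters, one-way promoters and the remaining autosomal peaks. At 50% GC or more, divergent promoters reached 34.2% thresholded and a median percentile of 98.6.

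Motifs were counted within 50 bp of the summit on both strands and set beside the share of all autosomal peaks with windows of the same length. AGGTCA, the core hexamer bound by many nuclear receptors, was in 1.57% of divergent promoter peaks and in 0 of the 43 thresholded ones, against 1.77% of all autosomal peaks. Its variants AGTTCA (4.25%, 1 of 43, against 6.57%), AGTCCA (2.36%, 1 of 43, against 1.67%) and GGGTCA (0.945%, 1 of 43, against 0.959%) were also in few windows. GACGCA was in 6.30% of divergent promoter peaks and 20.9% of the thresholded ones, against 1.79% of all autosomal peaks, and thresholded one-way promoter peaks held it in 28.8%. TGGAGCG was in 3.78% and in 20.9% of the thresholded ones, against 0.531%, and in 4.55% of thresholded one-way promoter peaks. GGTCTCG was in 4.09% and 14%, against 0.783%, and in 6.06% of thresholded one-way promoter peaks. CATACACT was in 0.630% and 9.30%, against 0.244%. It was in 1.52% of thresholded one-way and 4.08% of thresholded remaining peaks. GACGCA came from an earlier look at these peaks, and the last 3 motifs were chosen from the windows counted here. The shares of all of these motifs among thresholded peaks therefore describe that choice.

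Motifs rich in A and T were less frequent within 50 bp of thresholded summits. A run of AAAAAA was in 51.7% of divergent promoter peaks and 20.9% of the thresholded ones, against 59.2% of all autosomal peaks. This was not particular to the class, since it was in 25.8% of thresholded one-way and 28.6% of thresholded remaining peaks. TATAAA was in 14% and in 0 of 43, against 17.1%, and TTTCAG, a splice acceptor sequence, in 16.1% and 2.33%, against 21.5%. For AAAAAA the difference depended on the window, since within 100 bp of the summit it was in 76.9% of divergent promoter peaks and 74.4% of the thresholded ones, against 78.2% of all autosomal peaks. GC-rich GGGCGG was in 2.99% and 11.6%, against 1.11%, and in 3.03% of thresholded one-way and 4.08% of thresholded remaining peaks. The GA repeat GAGAGA was in 7.72% and 20.9%, against 5%. It was in 10.6% of thresholded one-way peaks but in 34.7% of thresholded remaining peaks. GC content, which differed between thresholded peaks and all peaks as given above, was not matched in these counts. CACGTG was in 1.73% and 4.65%, against 1.00%, CGCGCG in 2.36% and 0 of 43, against 0.458%, and TGATAA in 10.2% and 2.33%, against 10.9%.

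Annotated 5′ ends that directly followed an AG were more frequent among the genes at these peaks than among all autosomal protein-coding genes. They made up 52.3% of the 86 genes at thresholded peaks and 36.4% of the 1214 genes at all divergent promoter peaks, against 27.7% of 17242 autosomal protein-coding genes. The share over all genes of divergent pairs is not given here. The difference may therefore belong to such genes with or without a peak, which was not tested. For such genes, distances from the summit may be measured to a trans-splice site.

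Gene functions were described by lists of gene symbols. A gene of a divergent pair counted as having a peak when a summit lay in the gap it shares with its partner, so each peak counts for both genes. Of 5126 genes in such pairs, 23.7% had a peak and 1.68% a thresholded one. Cytosolic ribosomal protein genes had a peak in 29 of 52 cases (55.8%) and a thresholded one in 10 (19.2%). Chaperone genes had a peak in 18 of 33 cases (54.5%) and a thresholded one in 6 (18.2%), and translation factors in 9 of 26 (34.6%) and 3 (11.5%). Genes of the spliceosome and mRNA processing had a peak in 19 of 33 cases (57.6%), the highest share among the lists, but no thresholded one. For the respiratory chain and ATP synthase it was 19 of 42 (45.2%) with 2 thresholded, and for mitochondrial ribosomal proteins 10 of 29 (34.5%) with none.

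**Figure D5:**
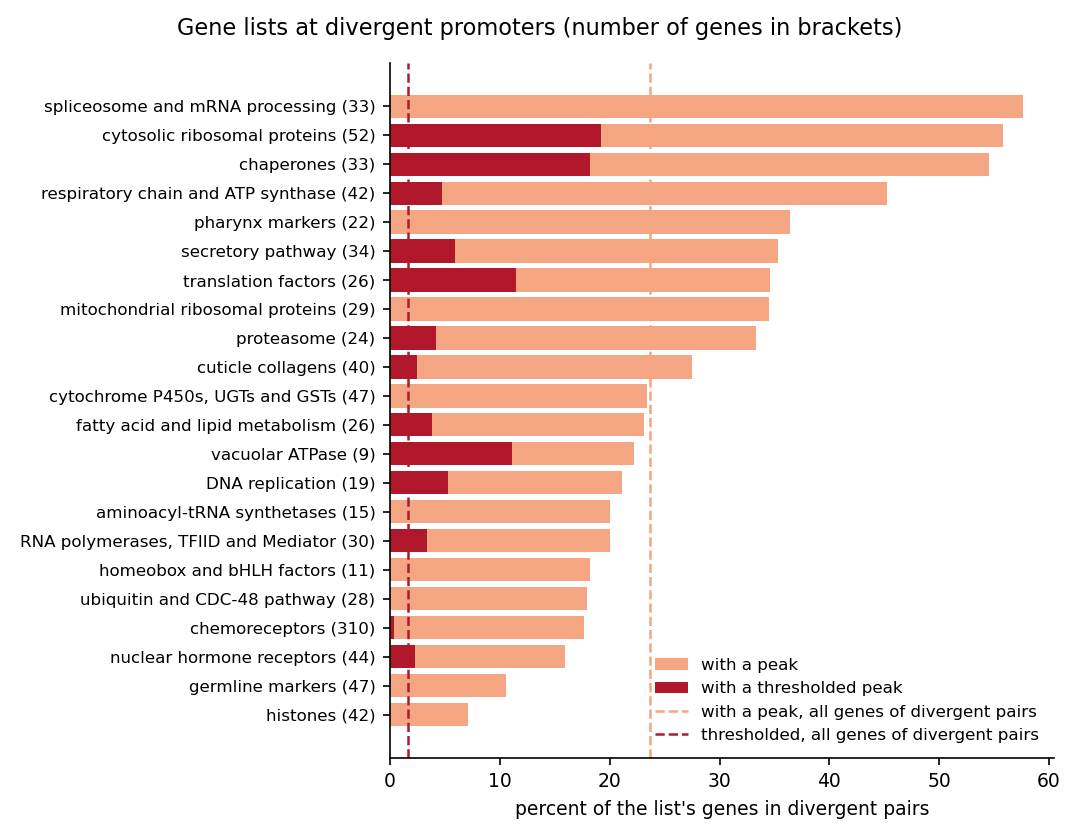
Percent of the genes in divergent pairs with a peak (light) and with a thresholded peak (dark) in each gene list with 9 or more such genes, whose number is in brackets. Dashed lines mark 23.7% with a peak and 1.68% with a thresholded peak over all 5126 genes of divergent pairs.

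A total of 6 genes of the chaperone list stood at thresholded divergent promoters. The peak of cct-8 / Y55F3AR.2 had 50.3 in the pooled list, 9.69 in replicate 1 and 41.0 in replicate 2, and that of mig-5 / cct-1 had 46.6, 16.6 and 30.2. Both cct genes encode subunits of the TRiC chaperonin, which folds actin and tubulin. At dnj-19 / nhr-47 the values were 44.9, 9.21 and 34.5, and the summit was 24 bp from nhr-47, a nuclear hormone receptor gene, and 372 bp from the J-domain gene dnj-19. The pairs dnj-29 / ndua-2, hsp-110 / rpn-3 and Y22D7AL.10 / hsp-60 had 41.5, 38.2 and 37.5 in the pooled list. In the last of these, hsp-60 encodes the mitochondrial chaperonin and Y22D7AL.10 is named by RefSeq as its 10 kDa partner. In 5 of the 6 pairs the summit was nearer to the partner than to the listed gene, and in Y22D7AL.10 / hsp-60 that partner is itself named as a chaperone.

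For ribosomal protein genes too the summit was about as often nearer to the partner. In 25 pairs with 1 such gene, it was nearer to that gene in 11 and nearer to its partner in 14, at medians of 282 and 225 bp. Among their 10 thresholded pairs it was nearer to the ribosomal gene in 5. Pairs with a ribosomal protein gene at both sides numbered 2, and neither was thresholded.

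Strong peaks of other lists included Y71H2AM.20 / nduc-2, with a complex I subunit gene, at 50.7 in the pooled list, 9.80 in replicate 1 and 37.9 in replicate 2. At eef-1B.1 / aco-2 the values were 42.5, 13.1 and 26.2, with the summit 6 bp from eef-1B.1, an elongation factor gene, and 325 bp from aco-2, the gene of mitochondrial aconitase. C17H12.2 / vha-8, with a vacuolar ATPase subunit gene, had 38.3, 7.98 and 24.4. The peak of mcrs-1 / atp-1, with the gene of ATP synthase subunit alpha, had 36.5, 5.90 and 35.1 and was just short of the thresholded list. The splicing factor genes rsp-2 and rsp-1 shared a peak of 30.6, 14.8 and 12.7, and the histone genes his-67 and his-68 one of 26.5, 8.52 and 17.01. Peaks with only a replicate 2 counterpart included emc-6 / mrps-24, with a mitochondrial ribosomal protein gene, at 31.2 in the pooled list and 29.1 in replicate 2, and ccf-1 / trap-4, at 29.2 in both.

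Other families and marker lists, except the pharynx list, were nearer to the share of all genes in divergent pairs, or under it. Histone genes had a peak in 3 of 42 cases (7.14%), although 91.3% of autosomal histone genes were in divergent pairs. Nuclear hormone receptor genes had one in 7 of 44 (15.9%), with nhr-47 alone thresholded. Next to it came nhr-142 / F44E7.9, at 23.6 in the pooled list and 15.4 in replicate 1 with no replicate 2 peak, and nhr-184 / nstp-8, at 21.7 and, in replicate 2 alone, 19.4. Chemoreceptor genes had a peak in 55 of 310 cases (17.7%), and the only thresholded one was rsr-1 / sri-5. Cytochrome P450, UGT and GST genes (11 of 47, 23.4%), genes of fatty acid and lipid metabolism (6 of 26, 23.1%) and cuticle collagens (11 of 40, 27.5%) were close to it. Germline marker genes had a peak in 5 of 47 cases (10.6%), none of them thresholded. In the pharynx list 8 of 22 genes (36.4%) had a peak, also with none thresholded. Its genes with the strongest peaks were pqn-21, pqn-20, pqn-59 and pqn-41, taken in by symbol. Their RefSeq product names do not mention the pharynx, so this share cannot be read as one of pharynx genes. Markers of intestine, body wall muscle, hypodermis and neurons numbered 4, 2, 2 and 2 genes in divergent pairs, and none had a peak.

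The remaining lists were of small number. Proteasome genes had a peak in 8 of 24 cases (33.3%), with hsp-110 / rpn-3 thresholded, and genes of the secretory pathway in 12 of 34 (35.3%), with both genes of sec-61.B / trap-3 thresholded. The share was 5 of 28 (17.9%) for ubiquitin and CDC-48 pathway genes, 6 of 30 (20%) for RNA polymerases, TFIID and Mediator, 4 of 19 (21.1%) for DNA replication and 3 of 15 (20%) for aminoacyl-tRNA synthetases. Vacuolar ATPase genes had 2 of 9 (22.2%), mitochondrial protein import genes 2 of 5 (40%), and homeobox and bHLH genes 2 of 11 (18.2%). The lists of RNA polymerases, TFIID and Mediator, of DNA replication and of the vacuolar ATPase each had 1 gene at a thresholded peak. In the first of these lists it was ints-4, a gene of the Integrator complex, which the name of the list does not cover. The ubiquitin, tRNA synthetase, mitochondrial import and homeobox lists had none. Genes in no list had a peak in 23.2% of 4151 cases and a thresholded one in 1.32%.

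Most divergent gaps held 1 summit. There was 1 in 585 pairs, 2 in 22 pairs and 3 in 2 pairs, kgb-1 / T07A9.12 and pas-6 / CD4.11. All 635 intervals were 320 bp wide and none was shared by several summits, but summits in the same gap share their surroundings and are not independent. No other 5′ end of any gene lay between the pair in 530 of the 635 cases. Among the other 105, the genes in between were most often ncRNA genes, in 62 cases, other protein-coding genes, in 18, and piRNA genes, in 17. At 11 of the 43 thresholded peaks such an end was present. The 5′ end of the microRNA gene cel-mir-5549 was 3 bp from the summit of eef-1A.1 / rfc-4, and that of the spliced leader RNA gene sls-2.8 was 49 bp from the summit of tim-1 / Y75B8A.23. In 22 of the 635 cases the summit was inside the body of some protein-coding gene.

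The farthest summits inside it were those of Y44A6B.3 / srxa-14, 1000 and 150 bp from the 5′ ends with a signal of 14.8, and of ckb-4 / F22F7.3, at 237 and 997 bp with 10.7. Just outside were grl-17 / slrp-1, at 921 and 1001 bp with 15.2, and fkh-8 / cpb-2, at 1004 and 387 bp with 12.1.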

How the data were processed

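The authors deposited narrowPeak lists on ce11 in which signal, the value given to each peak, is on the peak caller's own scale in each list. Per the notes deposited beside the files, relaxed lists were called for each replicate and for both replicates pooled, and a thresholded list was drawn from the pooled one. Which caller, control, settings, aligner and threshold were applied is not given in the sources used here, and read depth is unknown.

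Genes and 5′ ends came from Ensembl release 115 of WBcel235, and sequences and product names from RefSeq of the same assembly, with positions counted from 1. A peak was taken as thresholded when its summit lay inside a thresholded interval. Position was the distance from the minus-strand gene divided by the gap. Shares of eligible bases, counted over the autosomes, served as the reference for position and density. Numbers of columns of other samples were 0. Peaks are not replicates of a condition, so no p-value was computed.

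Named pairs were the 20 with the highest pooled signal, up to 4 of each of 27 gene lists, thresholded pairs with both genes in one list, and the 2 summits on each side of the distance limit. 1 of the 20 pairs is not reported here. Other thresholded pairs, pairs with 3 summits and haf-3 / F57A10.2 were named after their values were seen. Gene lists, made by symbol, 13 motifs and the class itself were chosen with earlier results of these data known, and 3 motifs were added from the sequences. Classification and overlap of peaks were tested on simulated data. Alternatives changed the distance limit, the gene ends, the overlap rule and the lists used. Python 3.11.15 with numpy 2.4.6, pandas 2.3.3, scipy 1.17.1 and matplotlib 3.10.9 was used.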

Additional observations from a re-analysis of the deposited data

How the results depend on the processing

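Of 57 alternatives to 7 results, 22 moved the value and 35 did not, by the spread between replicates for shares and medians, by the binomial interval for overlap in both and by a factor of 1.5 for counts. For signal, thresholded share and position, the spread came from the replicate lists, whose own values were also alternatives labelled by it. The binomial interval covers counting of peaks only, and peaks are not independent. Part of this tally was also fixed in advance. All 635 intervals were distinct, so taking 1 summit per interval left the peaks of the class as they were. Keeping the highest 50% selects on signal, so the median percentile and the thresholded share had to rise. With both 5′ ends within 500 bp, 334 peaks and 331 pairs were found, 9.28% of the peaks were thresholded, the median percentile was 79.1, 53.9% were overlapped in both replicates and 58.1% lay in the middle of 3 equal parts of the gap. Among the highest 50% of autosomal peaks, 416 peaks remained, with 10.3% thresholded, a median percentile of 89.2 and 61.8% overlapped in both. Where no other 5′ end lay between the pair, 6.04% were thresholded. Overlap in both replicates was 37.3% with a reciprocal overlap of 50%, 31.0% with summits within 100 bp and 7.72% with the highest 1000 of each.

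With the peaks of 1 replicate list alone, the median percentile was 66.7 to 68.8. The share in the middle part was 42.9% to 51.5%, on both sides of the 46.0% of bases. The thresholded share was 5.70% to 6.56%, but the thresholded list itself was unchanged and rests on both replicates. That share therefore cannot show what leaving out a replicate would do. Overlap in both has no such value. Chosen after the data were seen, a GC content of 40% or more gave 22.7% thresholded and a median percentile of 94.3, and leaving out ribosomal protein pairs gave 5.45% and 69.4. The cause of these shifts was not tested. No paired analysis was possible because the series has 1 group only. Depth is unknown, so the lists cannot show how far missing replicate peaks come from depth.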
